A study of Oryza sativa Indica Group with 2 samples.

Results

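Phosphate transport and SPX signalling genes were taken as every row of the deposited rice gene table whose primary Swiss-Prot name holds one of 5 terms. The terms are inorganic phosphate transporter, phosphate transporter PHO1, SPX domain, purple acid phosphatase and PHOSPHATE STARVATION. They gave 57 of 35677 genes. These are 15 plasma membrane transporters of the PHT1 family, 1 chloroplast transporter, 3 PHO1-type exporters, 6 SPX proteins, 4 SPX membrane proteins and 28 purple acid phosphatases. The term PHOSPHATE STARVATION matched no primary name. The names are best hits. Among the 29 genes outside the phosphatases, 26 match a Swiss-Prot entry at 100% similarity. All 28 phosphatases are named after Arabidopsis (23) or sweet potato (5) proteins, at 58% to 92%.

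Messenger RNA came from rice seedlings (Oryza sativa, Indica group) at the tillering stage, from plants grown in Wuhan between May and October. The wild type (WT) gave 1 library, and a transgenic line that overexpresses the growth-regulating factor OsGRF7 (GRF7OE, plants labelled GRF7OE-1) gave the other. The question of the series is which transcripts the line and WT have at different levels, in relation to plant architecture. The promoter that drives the transgene, the phosphate supply and the number of plants per library are, in the sources used here, not given. With 1 library per group, no comparison has a replicate behind it and the conditions could not be tested.

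Levels are the deposited FPKM, the reads per gene scaled to transcript length and library size, so they can be compared between genes. Folds are plain FPKM ratios, and brackets hold their 95% exact counting interval from the reads. Genes counted as 2-fold apart averaged 1 FPKM or more over both libraries, and their log2 ratio, with 1 added to each FPKM, was 1 or more in size. An estimated 17021463 reads fell on genes in GRF7OE and 16824984 in WT. OsGRF7 itself was at 70.7 FPKM in GRF7OE against 5.10 in WT, 13.9-fold higher [11.9 to 16.2]. The 6 leaf markers, from Rubisco small subunits to antenna proteins, lay between 701 and 4273 FPKM. The 4 root markers lay between 0 and 7.22, with the iron-phytosiderophore transporter YSL15 at 0 reads in both libraries. Of 4 floral MADS genes, MADS4 and MADS6 had at most 7 reads per library, while MADS16 was at 35.6 and 34.6 FPKM. In such bulk samples, fewer cells of a type and less RNA per cell cannot be told apart.

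Plants take up phosphorus as inorganic phosphate (Pi). PHT1 transporters bring Pi into cells across the plasma membrane, PHO1 proteins export it towards the xylem, and SPX membrane proteins move it across the vacuolar membrane. The SPX domain senses cellular phosphate status by binding inositol pyrophosphates. Under adequate Pi, SPX proteins bind and hold back the PHR transcription factors, the MYB-type activators of phosphate starvation genes. Purple acid phosphatases release Pi from organic phosphate compounds inside and outside the cell.

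Most of these genes lay close to WT. Of the 57, 31 averaged 1 FPKM or more, and 27 of those 31 were within 1.5-fold of WT on the log2 scale, as were 86.0% of all 23397 genes that passed the same filter. One member was at least 2-fold higher in GRF7OE and 0 were 2-fold lower, where the shares over all genes were 3.24% and 1.25%. The median log2 ratio was 0.08 in the members and -0.01 over all genes, and the members ran from -0.66 to 1.07. Above 0 were 22 of the 31 members and 48.3% of all genes. With the FPKM of GRF7OE scaled so that the sums of both libraries were equal, 15 members and 38.8% of all genes were above 0. The median was then -0.01 in the members and -0.09 over all genes. The counting interval lay wholly above a ratio of 1 in 9 of the 31 members and wholly below in 7. Over all genes the shares were 24.4% and 25.2%.

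**Figure D1:**
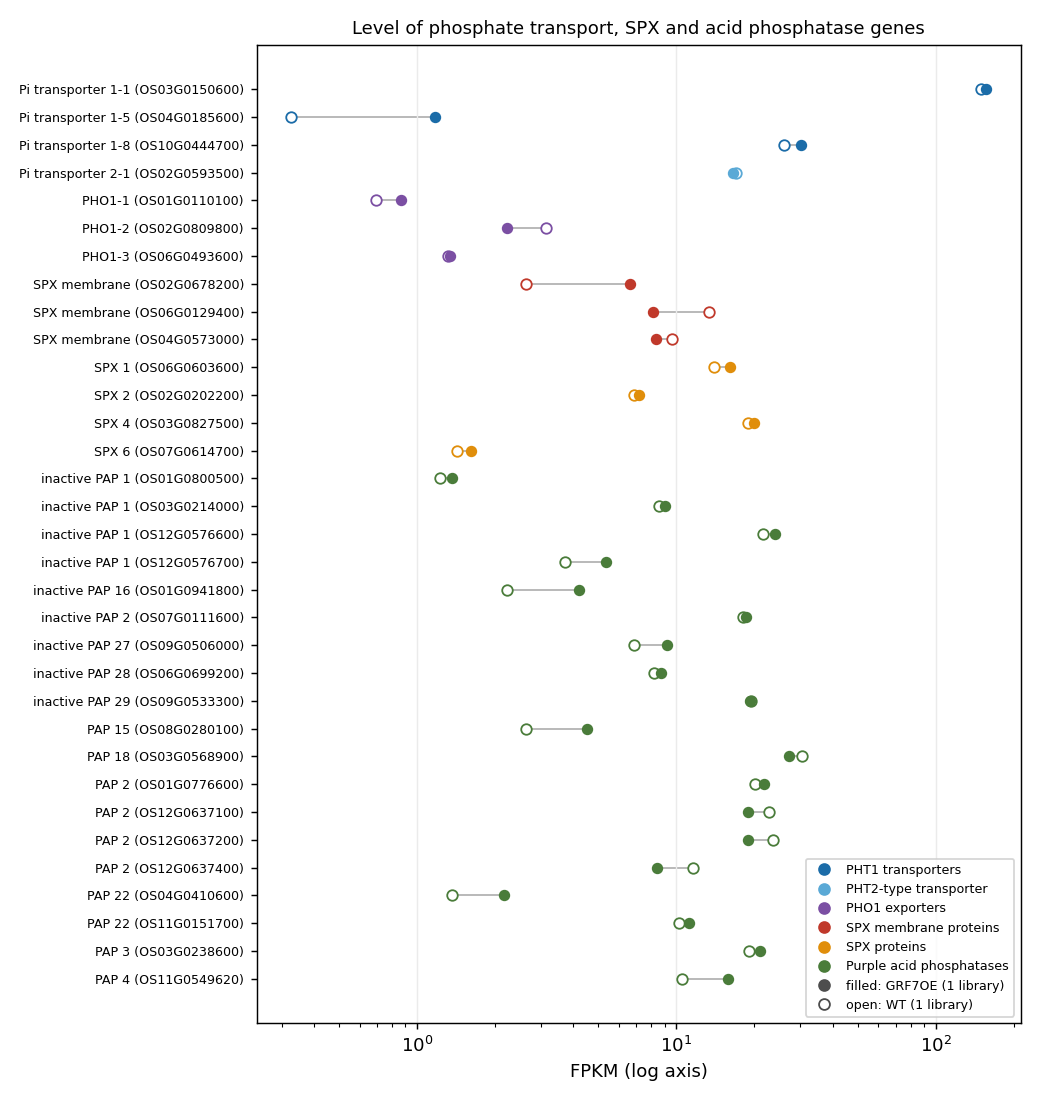
FPKM (log axis) of the 33 genes that averaged 1 FPKM or more, or had 20 or more reads in a library, with GRF7OE as filled and WT as open circles, 1 library each. Inorganic phosphate transporter 1-1 stands apart at 156 and 149 FPKM, and the widest gaps are at transporter 1-5 and the SPX membrane gene OS02G0678200.

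The SPX membrane proteins held both the highest and the lowest log2 ratio among the 31. OS02G0678200 was at 6.63 FPKM in GRF7OE against 2.63 in WT, from about 376 and 144 reads. This is 2.52-fold higher [2.07 to 3.08], a log2 ratio of 1.07. It is the 1 member past 2-fold, and the log2 ratio came to 0.99, just under the threshold, with the FPKM sums set equal. In the authors' deposited table it is also the 1 member marked as significant, at an FDR of 0.0374. That value compares these 2 libraries and not the conditions, and 1.63% of the genes with a valid comparison there were called.

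OS06G0129400, from the same family, went the other way. It was at 8.15 FPKM in GRF7OE against 13.4 in WT, 1.65-fold lower [1.45 to 1.87], a log2 ratio of -0.66. OS04G0573000 was at 8.32 FPKM and 9.59, 1.15-fold lower [1.01 to 1.31]. The fourth gene, OS09G0521800, had about 3 reads against 9, 3.02-fold lower [0.753 to 17.3], an interval that holds 1. In WT the highest of the family was OS06G0129400, with 51.9% of the family's summed FPKM. In GRF7OE its share was 35.2%, and OS04G0573000 was at a similar level. The family's summed FPKM was 23.2 in GRF7OE and 25.9 in WT, so the total was more alike in the libraries than its single genes. In rice, some genes of this family are known as targets of the microRNA miR827, which responds to phosphate supply.

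**Figure D2:**
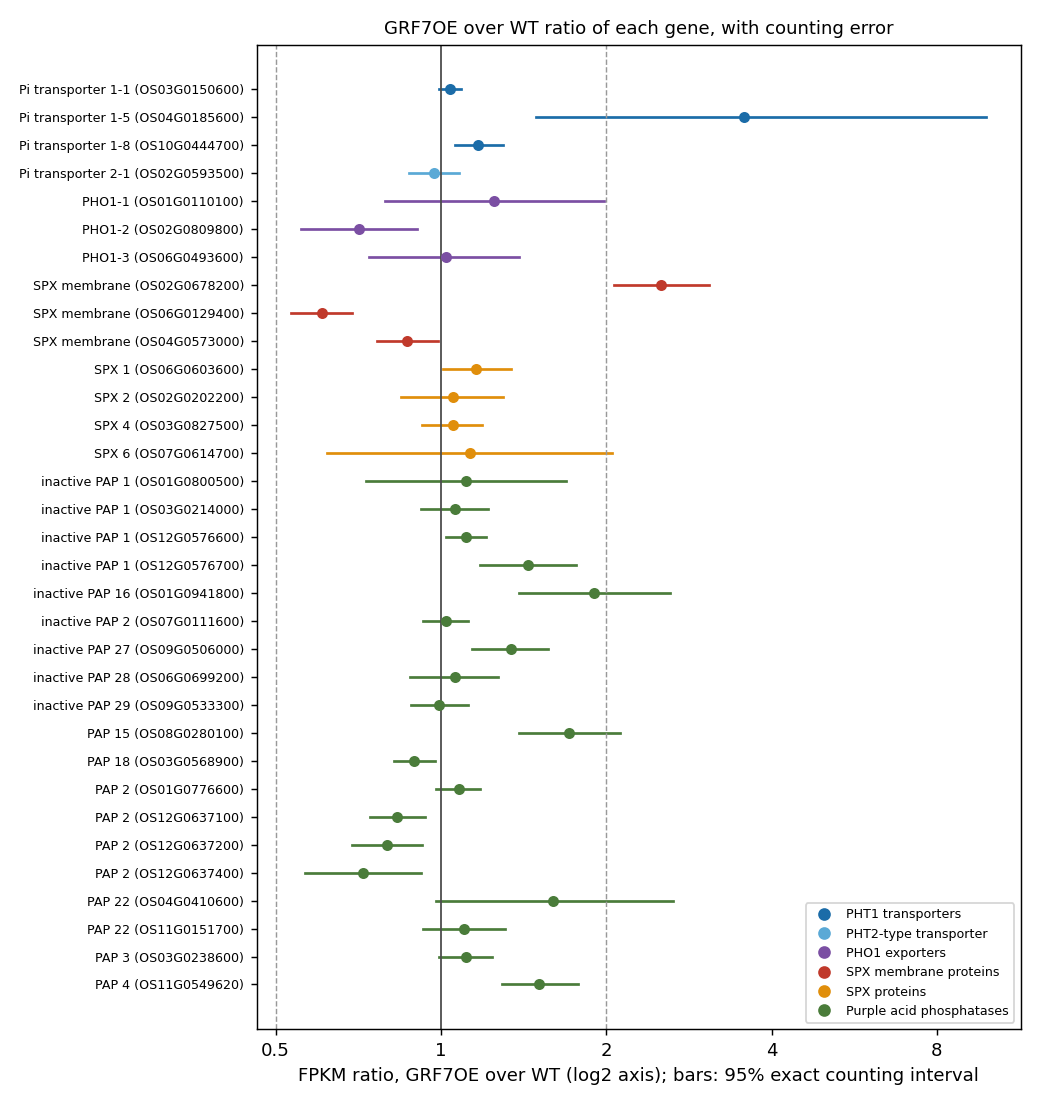
FPKM ratio of GRF7OE over WT (log2 axis) for the same 33 genes. Points are the ratios, bars their 95% exact counting intervals, and dashed lines mark 2-fold. The interval of OS02G0678200 (2.07 to 3.08) is the 1 that lies wholly past a ratio of 2, and 7 intervals lie wholly below 1, those of PHO1-2, OS06G0129400, OS04G0573000, OS03G0568900 and 3 phosphatases on chromosome 12.

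PHT1 expression was concentrated in a pair of genes that were at similar levels in both libraries. Inorganic phosphate transporter 1-1 (OS03G0150600), known in rice for constitutive expression in shoots as well as roots, was at 156 FPKM in GRF7OE against 149 in WT. The ratio was 1.04 [0.994 to 1.09], within counting error, and was below 1 with the FPKM sums set equal. Its mean ranked at percentile 96.4 of the genes that passed the filter, and it held 82.5% of the family's summed FPKM in GRF7OE and 84.5% in WT. Transporter 1-8 (OS10G0444700), a high-affinity transporter, was at 30.3 FPKM and 25.9, 1.17-fold higher [1.06 to 1.30]. With the FPKM sums set equal that interval held 1.

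The remaining 13 PHT1 entries were under a mean of 1 FPKM. Transporter 1-5 (OS04G0185600) was at 1.17 FPKM in GRF7OE against 0.327 in WT, 3.57-fold higher [1.49 to 9.82], on about 24 reads against 7. Transporter 1-4 (OS04G0186400), known in rice as a Pi uptake transporter, was at 0.779 FPKM and 0.318, 2.45-fold higher [1.02 to 6.47], on about 19 reads against 8. Both lie on chromosome 4 and their MSU locus numbers differ by 60. The other entry of that group, transporter 1-13 (OS04G0186800), had 0 reads in both libraries. The authors' deposited table marks neither gene as significant.

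Of the root markers, the manganese and cadmium transporter NRAMP5 was also higher in GRF7OE, at 2.74 FPKM against 1.06, 2.58-fold [1.74 to 3.90]. The silicon channel LSI1 was at 6.83 against 7.22 FPKM and the iron transporter IRT1 at 1.66 against 1.51, each with an interval that holds 1. Summed over the 4 root markers, of which YSL15 had 0 reads, the level was 11.2 FPKM in GRF7OE against 9.80 in WT. Their part in the ratios of transporters 1-4 and 1-5 was not tested.

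Transporter 1-6 (OS08G0564000), a high-affinity uptake transporter known from rice roots, had about 12 reads against 16, with a ratio of 0.780 [0.337 to 1.76]. Transporters 1-2 (OS03G0150800), a low-affinity root transporter, 1-3 (OS10G0444600) and 1-9 (OS06G0324800) had at most 2 reads per library, too few for a fold. Those at 0 reads in both libraries were 7 entries, among them 1-11 (OS01G0657100), known as the transporter of the mycorrhizal symbiosis in rice. A count of 0 allows up to 3 reads per library. Genes of the family with few or no reads lay beside the highly expressed ones. Transporter 1-1 lies between 1-12 (OS03G0150500, 0 reads) and 1-2 by MSU locus number on chromosome 3, and 1-8 next to 1-3 on chromosome 10.

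The chloroplast transporter, named after inorganic phosphate transporter 2-1 (OS02G0593500), was alike in both libraries. It was at 16.5 FPKM in GRF7OE against 17.0 in WT, with a ratio of 0.971 [0.874 to 1.08].

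PHO1-2 was the 1 exporter whose interval left out 1. PHO1-2 (OS02G0809800), the rice gene known for loading Pi into the root xylem, was at 2.22 FPKM in GRF7OE against 3.13 in WT. It was 1.41-fold lower [1.11 to 1.80], on about 120 reads against 166, and the authors' deposited table does not mark it as significant. The gene has a known antisense transcript in rice, and the sources used here do not state the strand of the libraries, so sense and antisense reads cannot be told apart. PHO1-3 (OS06G0493600) was at 1.34 and 1.32 FPKM, with a ratio of 1.02 [0.741 to 1.39]. PHO1-1 (OS01G0110100) was at 0.868 and 0.696 FPKM, with a ratio of 1.25 [0.792 to 1.98]. The 3 genes were thus in the same order in both libraries, with PHO1-2 highest and PHO1-1 lowest.

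The SPX proteins that inhibit PHR factors lay near WT. SPX domain-containing protein 4 (OS03G0827500), which holds a PHR factor in the cytosol in rice, was the highest at 19.9 FPKM in GRF7OE against 18.9 in WT, with a ratio of 1.05 [0.924 to 1.19]. Protein 1 (OS06G0603600), a nuclear inhibitor of PHR2, was at 16.1 and 13.9 FPKM, 1.16-fold higher [1.01 to 1.34]. Its interval held 1 with the FPKM sums set equal. Protein 2 (OS02G0202200), also a nuclear inhibitor, was at 7.18 and 6.84 FPKM, with a ratio of 1.05 [0.845 to 1.30].

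The other SPX entries were low. Protein 6 (OS07G0614700), annotated with 134 residues, was at 1.61 and 1.43 FPKM, with a ratio of 1.13 [0.621 to 2.05]. Proteins 3 and 5 had few reads. Protein 3 (OS10G0392600) was at 0.502 FPKM and 0.238, on about 8 reads against 4, and protein 5 (OS03G0406100), an entry of 64 residues, had about 4 reads against 1. Their ratios of 2.11 [0.564 to 9.56] and 4.01 [0.397 to 197] have intervals that hold 1. All 4 SPX proteins past the filter had a log2 ratio above 0, between 0.06 and 0.20, where 48.3% of all genes were above 0. The intervals of 3 of the 4 held 1. Proteins 2 and 4 turned below 0 with the FPKM sums set equal, where 38.8% of all genes were above 0.

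Purple acid phosphatases made up 28 of the 57 genes. Past the filter were 19, and none of them was 2-fold apart, where the shares over all genes were 3.24% higher and 1.25% lower. Of these, 14 had a log2 ratio above 0 and 5 below, with a median of 0.10 and a range of -0.43 to 0.70. The interval was wholly above 1 in 6 of the 19 and wholly below in 4, near the 24.4% and 25.2% of all genes. Above 0 were 48.3% of all genes. With the FPKM sums set equal the median came to 0.03. The family had no dominant gene, since the highest, OS03G0568900, held 10.9% of its summed FPKM in GRF7OE and 12.5% in WT.

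The largest ratio was that of OS01G0941800, an entry of 173 residues named after inactive purple acid phosphatase 16. It was at 4.22 FPKM in GRF7OE against 2.22 in WT, 1.90-fold higher [1.39 to 2.61]. OS08G0280100, named after purple acid phosphatase 15, an Arabidopsis enzyme with phytase activity, was at 4.51 and 2.63 FPKM, 1.71-fold higher [1.39 to 2.12]. OS11G0549620, named after phosphatase 4, was at 15.8 and 10.5 FPKM, 1.51-fold higher [1.29 to 1.78]. OS12G0576700 was 1.44-fold [1.18 to 1.76] and OS09G0506000 1.34-fold higher [1.14 to 1.57]. OS04G0410600, named after phosphatase 22, had a ratio of 1.60 [0.979 to 2.65], on about 44 reads against 29. The authors' deposited table marks none of these as significant.

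The phosphatases lower in GRF7OE were mostly neighbours. OS12G0637100, OS12G0637200 and OS12G0637400, named after sweet potato purple acid phosphatase 2, have MSU locus numbers within 30 of each other on chromosome 12. OS12G0637100 was at 18.9 FPKM in GRF7OE against 22.7 in WT, 1.20-fold lower [1.07 to 1.35]. OS12G0637200 was at 18.8 and 23.5 FPKM, 1.25-fold lower [1.08 to 1.45]. OS12G0637400, an entry of 135 residues, was at 8.38 and 11.6 FPKM, 1.39-fold lower [1.09 to 1.77]. All 3 intervals lay below 1, and they did so under both scalings. Of all 19 phosphatases past the filter, these 3 included, 14 had a log2 ratio above 0, against 48.3% of all genes. With the FPKM sums set equal, OS03G0214000, OS06G0699200 and OS07G0111600 of those 14 turned below 0, and 38.8% of all genes were above 0. The 3 neighbours on chromosome 12 were singled out after their values were seen. Their sequences may be alike enough for reads to be divided between them.

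A further lower gene was OS03G0568900, named after phosphatase 18, at 27.2 FPKM and 30.5, 1.12-fold lower [1.03 to 1.22]. Next to the 3 genes on chromosome 12, OS12G0637000 had 0 reads in GRF7OE and about 1 in WT. Another run on that chromosome went the other way. OS12G0576600 was 1.11-fold higher [1.02 to 1.21], an interval that held 1 with the FPKM sums set equal, OS12G0576700 beside it 1.44-fold higher, and OS12G0576750 had 0 reads against 2.

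The remaining phosphatases past the filter had intervals that hold 1, with ratios from 0.993 (OS09G0533300) to 1.11 (OS01G0800500 and OS03G0238600). Among them OS01G0776600 and OS03G0238600 were well expressed, at 21.7 and 21.0 FPKM in GRF7OE and 20.1 and 19.0 in WT. Entries that Swiss-Prot names as probably inactive had a median of 0.09 in 9 genes past the filter, and that of the other 10 was 0.11. Of the 9, 8 had a log2 ratio above 0, with 4 intervals wholly above 1 and 0 below. Of the 10, 6 were above 0, with 2 intervals above 1 and all 4 of the family's intervals below 1. Those 4 are OS03G0568900 and the 3 neighbours on chromosome 12 described above. Over all genes 48.3% were above 0, and intervals lay wholly above 1 in 24.4% and wholly below in 25.2%. A scaling to equal FPKM sums was tried on this split by name after the values were seen. With it, 5 of the 9, 6 of the 10 and 38.8% of all genes were above 0. Of the 9 phosphatases under a mean of 1 FPKM, 3 had 0 reads in both libraries and the others at most 11 reads.

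**Figure D3:**
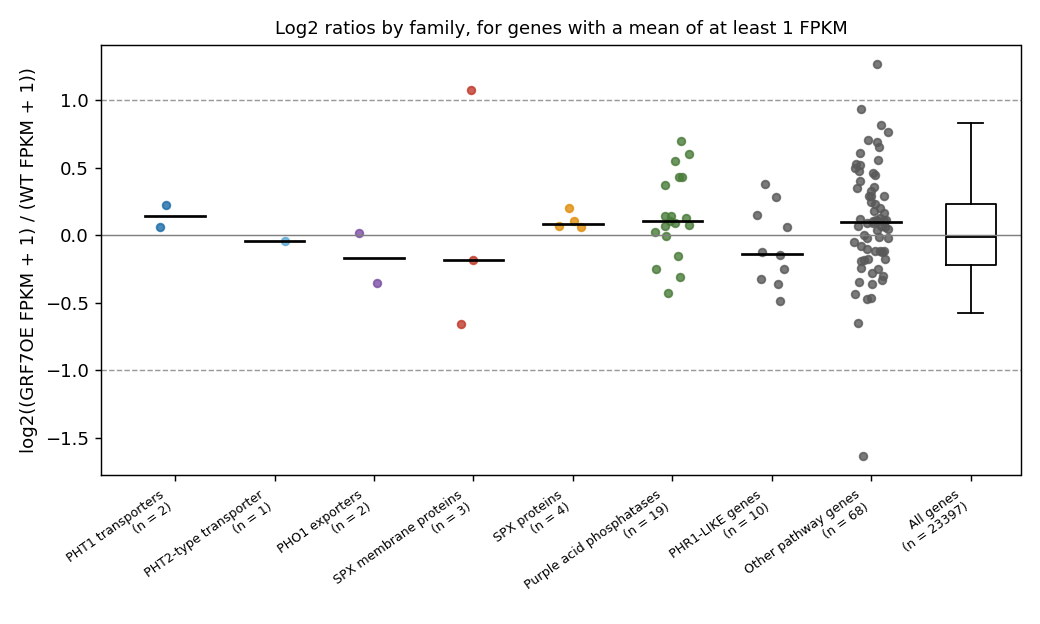
Log2 ratio of GRF7OE over WT, with 1 added to each FPKM, for genes that averaged 1 FPKM or more. Points are genes, black lines are medians, dashed lines mark 2-fold, and the box for all 23397 genes shows the quartiles with whiskers from the 5th to the 95th percentile. Family medians lie between -0.18 and 0.14, and the SPX membrane proteins are spread from -0.66 to 1.07.

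Candidates for PHR-type factors, which the naming rule left out, differed by less than 1.5-fold. The table names 10 genes after Arabidopsis PHR1-LIKE 1, a MYB factor related to the starvation activator PHR1, at 67% to 76% similarity. Which of them act as PHR activators was not tested, and this list was added after the values had been seen. All 10 passed the filter and were within 1.5-fold, 4 with a log2 ratio above 0 and 6 below, with a median of -0.14. Over all genes 86.0% were within 1.5-fold and 48.3% above 0. The interval lay wholly above 1 in 2 of the 10 and wholly below in 5, against 24.4% and 25.2% of all genes. OS09G0299200 was the highest, at 27.4 FPKM in GRF7OE against 32.8 in WT, 1.20-fold lower [1.10 to 1.31]. OS07G0438800 was at 22.5 and 25.1 FPKM, 1.11-fold lower [1.02 to 1.22]. The lowest ratio was that of OS08G0346500, 1.45-fold lower [1.18 to 1.77], and the highest that of OS06G0703900, 1.33-fold higher [1.16 to 1.54].

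Other genes of phosphate metabolism were taken by name from 85 rows, among them pyrophosphatases, organellar phosphate carriers, phosphate translocators and galactolipid synthases. Of the 68 past the filter, 1 was higher and 1 lower by 2-fold or more, where the shares over all genes were 3.24% and 1.25%. The median was 0.10, and 0.01 with the FPKM sums set equal. OS02G0226200, named after an Arabidopsis pyrophosphate-specific phosphatase whose gene is known there to be induced by phosphate starvation, was at 1.91 FPKM in GRF7OE against 8.04 in WT. It was 4.21-fold lower [2.75 to 6.64], on about 27 reads against 121. A second gene of that name, OS01G0720400, was at 37.0 and 28.9 FPKM, with a log2 ratio of 0.35. OS08G0401800, an entry of 805 residues, is named after Arabidopsis phospholipase D zeta at 74% similarity. It was at 3.33 and 0.803 FPKM, 4.16-fold higher [2.72 to 6.54]. Phospholipase D enzymes cleave membrane phospholipids, and which type this gene encodes was not tested. The authors' deposited table marks both genes past 2-fold as significant, at FDRs of 0.0213 and 0.0254.

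Triose phosphate and glucose-6-phosphate translocators of plastids exchange sugar phosphates for Pi. The genes named as phosphate translocators, most of them only as probable ones by best hit, had a log2 ratio above 0 in 14 of 17, against 48.3% of all genes. Their median was 0.29 where that of all genes was -0.01. With the FPKM sums set equal, tried after the values were seen, 13 of the 17 were above 0 with a median of 0.20, and 38.8% of all genes with a median of -0.09. None was 2-fold apart with 1 added to each FPKM, where the shares over all genes were 3.24% higher and 1.25% lower. By the plain FPKM ratio 2 low genes were past 2-fold, and the share over all genes was not computed for that ratio. OS12G0136100 was at 2.97 and 1.07 FPKM, 2.77-fold higher on about 40 reads against 15, with an interval wholly above 1. OS11G0139400 was at 2.59 and 1.04 FPKM, 2.50-fold higher [1.46 to 4.43]. Both have the same best hit, as do further genes among the 17, so reads may be divided between them if their sequences are alike. By the plain ratio OS05G0438500, a pyrophosphatase among the 85 rows, was past 2-fold the other way. It was at 1.16 FPKM in GRF7OE against 2.38 in WT, 2.05-fold lower [1.18 to 3.70]. The highest of the 17, the triose phosphate translocator (OS01G0239200), was at 462 FPKM in GRF7OE against 377 in WT. The 6 leaf markers were higher in GRF7OE as well, by 1.05-fold to 1.82-fold, and their part in these ratios was not tested. Mitochondrial phosphate carriers had a median of 0.18 in 6 genes. Genes named as anion transporters, of which 5 of 7 are named as chloroplastic, had a median of 0.07, which came to -0.02 with the FPKM sums set equal. In the gene ontology column, 8 of the 57 genes carry the term cellular response to phosphate starvation. Of the 46 other genes with that term, some of which are also among the 85 rows above, 37 passed the filter. None of the 37 was 2-fold apart, where the shares over all genes were 3.24% higher and 1.25% lower. Their median was 0.02, and that of all genes was -0.01.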

How the data were processed

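Bowtie and Cuffdiff are named in the submitters' processing notes. The sources used here do not state their versions, the genome build or the library strand. The FPKM columns were used as the authors deposited them. The deposited count columns hold a normalised signal per gene, as the authors scaled it to library size. The step of 1 read is 0.963 for GRF7OE and 0.954 for WT, and 99.1% and 99.2% of values under 10000 were whole multiples of that step, within 0.05. Dividing by the step gave the reads. The p-value and FDR columns are the authors' own, and their mark of significance asks for an FDR up to 0.05 and a log2 ratio of 1 or more in size, per the file headers. A direction column whose header names an RNAi line in place of GRF7OE was not used. Similarity and protein length are other annotation columns, as deposited.

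Log2 ratios used a pseudocount of 1, which understates the ratio of low genes. Every member with a mean of at least 1 FPKM or at least 20 reads in a library (33) was described. Some phosphatases whose intervals hold 1 were given only as part of a range of ratios. The other 24 members were counted or named with their reads. Intervals are exact (Clopper-Pearson) on the reads of both libraries, rescaled to the FPKM ratio, and cover counting error only. No fold is given when 1 library had 0 reads or both had at most 3. Neighbours were read from MSU locus numbers. Organ markers that the table names otherwise were dropped, leaving 14. The members and lists were chosen with earlier results of these data known. Steps were tested on simulated reads. The software was pandas 2.3.3, SciPy 1.17.1, NumPy 2.4.6 and Matplotlib 3.10.9, run in Python 3.11.15.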

Additional observations from a re-analysis of the deposited data

How the results depend on the processing

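The count of 1 gene at least 2-fold higher and 0 lower was the same with pseudocounts of 0.5 and 0.1, with no filter on low values, with the median ratio scaled to 1, from the normalised count columns and by the authors' own calls. The higher count was 0 at a mean of at least 5 FPKM, where OS02G0678200 is not tested. It was also 0 with the FPKM sums set equal and at a fold size of 3. Over all genes, the 5 FPKM filter kept 16447, with 481 higher and 165 lower. Equal sums gave 618 higher and 348 lower among all 23397 genes, and a fold size of 3 gave 204 and 53. At a fold size of 1.5 the members numbered 3 higher and 1 lower, where over all 23397 genes the counts were 2148 and 1121. The PHT1 median of 0.14 came to 0.00 with no filter, since most of the family is at or near 0 reads. The SPX membrane median of -0.18 came to -0.42 at a mean of at least 5 FPKM, with OS02G0678200 left out. The PHO1 median of -0.17 came to 0.01 with no filter, as PHO1-1 then enters. The median of all members, 0.08, was between -0.01 and 0.13 under the alternatives tried. Setting the sums equal turned the sign of 7 of 31 genes, leaving 15 above 0 and 16 below, where 38.8% of all genes were above 0. Scaling to a median ratio of 1 turned the sign of 1. The intervals wholly above 1 numbered 11 with the median ratio scaled to 1 and 6 with equal sums, where the shares over all genes were 25.6% and 18.6%. Those below 1 numbered 7 under both, where the shares over all genes were 23.7% and 34.2%. No paired analysis was possible because each group has 1 library. Depth limits the 24 genes with under 20 reads in both libraries.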
